A study of Mus musculus with 37 samples.

Results

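Mt1, Mt2 and Mt3, the metallothionein genes detected in hippocampal astrocytes of mice with and without post-traumatic epilepsy (PTE), were examined across 3 groups and both hemispheres. The 3 genes were chosen by symbol, without regard to their values, and all 3 were found among the 21975 gene identifiers of the count and TPM tables. Mt4, the remaining gene of the same cluster, was at 0 counts in all 37 libraries. All 3 members passed the filter on low counts in both hemispheres.

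Metallothioneins are small, cysteine-rich proteins that bind zinc and copper and take up reactive oxygen species. Mt1 and Mt2 are made in most tissues, are expressed strongly by astrocytes in the brain, and are induced by metals through the transcription factor MTF1, by glucocorticoids and by oxidative stress. Mt3, also called growth inhibitory factor, is found mainly in the brain and responds less to metals.

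The mice were wild-type CD1 males, young adult at the start, whose strain is written CD31 in the sample labels. The injured mice received a controlled cortical impact (CCI), a focal contusion through a craniectomy on 1 side, and were classed as PTE+ or PTE- from later video and EEG recording, with PTE+ standing for at least 2 epileptic episodes. Sham mice had the surgery and the electrodes without the impact. At 4 months, astrocytes were pulled from the dissected hippocampus of each side with beads against ACSA-2, an astrocyte surface antigen encoded by Atp1b2, and sequenced after SMART-Seq V4 amplification. The contralateral libraries came from 5 PTE+, 10 PTE- and 5 sham mice, and the ipsilateral libraries from 4, 8 and 5, so that 17 of the 20 mice gave both sides. Each library is 1 hippocampus of 1 mouse. Mice carry names beginning with a8 or a9, whose meaning is not stated, and every group holds mice of both kinds.

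Totals ran from 25371887 to 55333329 counts in the contralateral libraries and from 36925501 to 59846479 in the ipsilateral ones, so counting error was small for the members, whose lowest count in any library was 5433. The number of genes with a count was 9020 in the ipsilateral library of PTE- mouse a8_11 and 10886 to 15545 in the other ipsilateral libraries. The summed level of 10 astrocyte markers lay between 11265 and 36088 CPM (counts scaled to library size) over the ipsilateral libraries, and that of 7 neuronal markers between 52.4 and 871 CPM. The ipsilateral library of a8_11 had the lowest sum of both lists and the highest sum of 6 ependymal and choroid plexus markers, 5182 CPM against a median of 209.6 CPM. In bulk libraries, fewer cells of a type and less RNA per cell cannot be told apart.

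The 4 genes lie in a row on the plus strand of chromosome 8 in GRCm38 (GENCODE M21). Mt4 is at chr8:94137197-94139031, Mt3 (ENSMUSG00000031760) at chr8:94152607-94154146, Mt2 (ENSMUSG00000031762) at chr8:94172664-94173568 and Mt1 (ENSMUSG00000031765) at chr8:94179082-94180327. Only 5513 bases separate the end of Mt2 from the first start of Mt1. The 3-exon transcripts of Mt1, Mt2 and Mt3 hold 549, 511 and 536 bases. Aligned to each other, Mt1 and Mt2 were identical at 71.0% of aligned bases, Mt1 and Mt3 at 62.1% and Mt2 and Mt3 at 63.0%. The longest stretch shared exactly was 27 bases, and no word of 50 bases of any member occurred in a transcript of another gene, so a read that long would be specific to 1 gene. The read length was not used here.

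Because the 3 genes moved together across mice, as shown further on, the letters of the metal response element were looked up before their start sites. MTF1 binds this element, searched here as TGCACNC or TGCGCNC on both strands. In the RefSeq promoter windows of 300 bases on GRCm38.p6, Mt2 (chr8:94172368-94172667) held 4 matches, Mt1 (chr8:94178839-94179138) held 3 and Mt3 (chr8:94152357-94152656) held 1. Among 32851 promoter windows of the same length, 25.7% held at least 1 match, 1.97% at least 3 and 0.517% at least 4. Each gene has several annotated starts, 159 bases apart at most for Mt1, 196 for Mt2 and 139 for Mt3, and up to the last start the matches numbered 5 for Mt1, 7 for Mt2 and 3 for Mt3. The 11 matches nearest to the last start (the other 4 of Mt2 lie 238 to 465 bases before it) are shown on the gene's strand with 10 bases on either side, to let their letters be compared between genes, with the match in capitals. A match on the opposite strand reads GNGTGCA or GNGCGCA.
Mt1 chr8:94179056-94179082: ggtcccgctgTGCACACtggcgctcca
Mt1 chr8:94179081-94179107: cagggagctcTGCACTCcgcccgaaaa
Mt1 chr8:94179099-94179125: gcccgaaaagTGCGCTCggctctgcca
Mt1 chr8:94179163-94179189: accgcctgctGGGTGCAaaccctttgc
Mt1 chr8:94179177-94179203: gcaaacccttTGCGCCCggactcgtcc
Mt2 chr8:94172666-94172692: gaaaaagggcGTGTGCAggcggcgggg
Mt2 chr8:94172685-94172711: cggcgggggcGCGTGCAtggtgccttc
Mt2 chr8:94172719-94172745: gcggagctttTGCGCTCgacccaatac
Mt3 chr8:94152624-94152650: gggacagcagTGCACACacacggagag
Mt3 chr8:94152651-94152677: caggcgctgtGCGTGCAtaggggcggg
Mt3 chr8:94152683-94152709: agtcgctgctTGCGCGCccccgcctgg

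As printed, the same 7 letters, TGCACAC, begin the Mt1 set and the Mt3 set, TGCGCTC occurs in both Mt1 and Mt2, and GCGTGCA in both Mt2 and Mt3. Read on the opposite strand, the GTGTGCA of Mt2 is also TGCACAC, so that match occurs in Mt1, Mt2 and Mt3. The antioxidant response element, searched as TGACNNNGC on both strands, had 1 match in the window of Mt2, chr8:94172529-94172557 (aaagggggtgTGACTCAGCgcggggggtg), and none in the windows of Mt1 and Mt3, although Mt1 had 1 between its annotated starts, while 12.4% of all windows held 1 or more. A match of letters is not a bound site, and no binding was measured in these libraries.

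Compared per length, as TPM, Mt1 was among the most abundant transcripts of these astrocytes. Its median over the 37 libraries was 6800 TPM, with a lowest value of 4592 TPM and a highest of 18658 TPM, and by TPM it ranked between 3rd and 18th of all genes, with a median rank of 8. Mt2 had a median of 1633 TPM (1059 to 3632 TPM) and Mt3 of 1795 TPM (890 to 5433 TPM). Mt1 exceeded Mt2 in 20 of 20 contralateral and 17 of 17 ipsilateral libraries, with a geometric mean ratio of 4.05 and 4.02 (2-sided sign permutation test with 100000 resamples, p = 1e-05 for both, the smallest it can give). Mt1 exceeded Mt3 as uniformly, with ratios of 3.84 and 3.94 (permutation p = 2e-05 and 1e-05). No difference was detected between Mt2 and Mt3. Mt2 was the higher in 8 of 20 contralateral and 8 of 17 ipsilateral libraries, with ratios of 0.948 and 0.980 (permutation p = 0.338 and 0.796).

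By group median, Mt1 followed the order contralateral sham (7840 TPM), ipsilateral sham (7348), ipsilateral PTE- (7086), contralateral PTE- (6821), ipsilateral PTE+ (5829) and contralateral PTE+ (5768 TPM). Mt2 had contralateral sham at the top with 2104 TPM and ipsilateral PTE+ at the bottom with 1387 TPM. Mt3 ran likewise from 2437 TPM in contralateral sham to 1115 TPM in ipsilateral PTE+. Both PTE+ groups were thus the lowest 2 of the 6 for each member, and the medians of neighbours in each order were apart by less than the SD of either group.

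In the contralateral hippocampus, Mt1 of the 5 PTE+ libraries was 759, 793, 827, 1310.0 and 1351 CPM. The 10 PTE- libraries had a lowest value of 839.9, a median of 1307 and a highest of 3776 CPM, and the 5 sham libraries had 686, 1089, 1282, 2057 and 2825 CPM. In PTE+, 3 libraries lay below every PTE- library, while the other pair lay close to the PTE- median, and the sham libraries spread over both. The highest PTE- value was that of mouse a8_11, and the next highest was 1642 CPM.

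**Figure D1:**
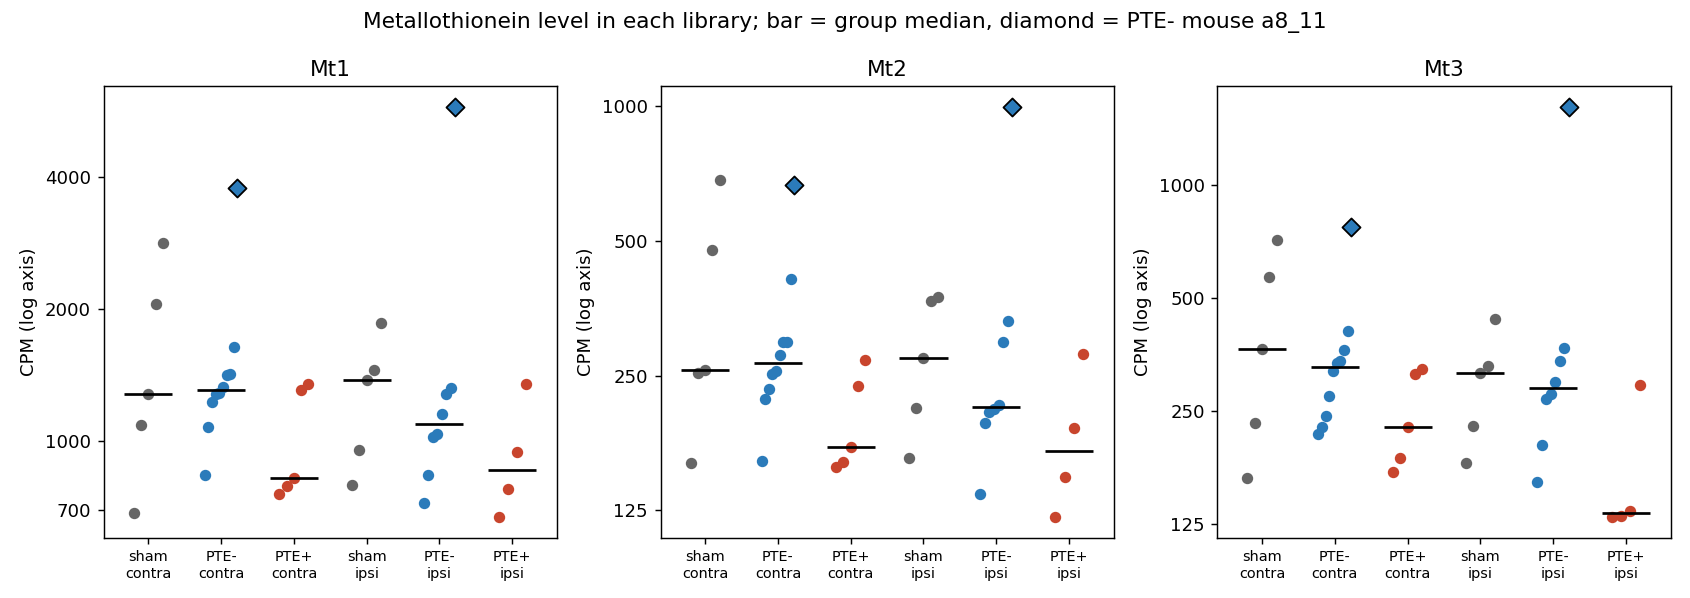
Level of Mt1, Mt2 and Mt3 in each of the 37 libraries, as CPM on a log axis, for sham, PTE- and PTE+ mice in the contralateral (contra) and ipsilateral (ipsi) hippocampus. Points are libraries, bars are group medians and diamonds are the libraries of PTE- mouse a8_11, which stood highest in PTE- for each gene on each side, up to 5756 CPM for Mt1.

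Mt2 showed a similar layout at lower CPM. Contralateral PTE+ libraries had 156.3, 160.3, 173.5, 237 and 271 CPM, PTE- libraries 161.0 to 668 CPM with a median of 267 CPM, and sham libraries 159.8, 254, 257, 478 and 686 CPM. Only 2 PTE+ libraries lay below all PTE- libraries, and the groups overlapped. Contralateral Mt3 was 172.7, 188.1, 227, 314 and 324 CPM in PTE+, 217 to 772 CPM with a median of 327 CPM in PTE-, and 165.6, 233, 365, 568.2 and 712 CPM in sham. All 5 PTE+ values of Mt3 were below the PTE- median and below the sham median, again with overlap.

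The fitted contralateral difference of PTE+ from PTE- was -0.61 for Mt1 (SE 0.32, unadjusted p = 0.0710), -0.63 for Mt2 (SE 0.33, p = 0.0651) and -0.52 for Mt3 (SE 0.32, p = 0.123) on the log2 scale, with an adjusted p of 0.9998 for each in edgeR's quasi-likelihood test with Benjamini-Hochberg adjustment over all genes. None of the 3 members passed at an adjusted p under 0.05, where 0.00683% of 14642 tested genes did, and none had an unadjusted p under 0.05, where 2.21% did. Against sham, PTE+ differed by -0.66 for Mt1 (p = 0.0822), -0.88 for Mt2 (SE 0.37, p = 0.0258) and -0.74 for Mt3 (p = 0.0566). Again no member passed after adjustment (background 0% of genes), and Mt2, 1 of 3, had an unadjusted p under 0.05 (background 1.23%). Mt2 also met the study's cutoffs of unadjusted p, at least 1.2-fold and a mean above 5 TPM (background 0.512% of all tested genes, of any level). The cutoffs were applied here to the edgeR p, whereas the study applied them to DESeq2. PTE- and sham mice differed by -0.05, -0.25 and -0.22 for Mt1, Mt2 and Mt3, with 0 of 3 members under either threshold (backgrounds 0% and 1.54%). These 3 values turned positive without sham mouse a8_16 (0.26, 0.10 and 0.073) and under voom with quality weights (0.26, 0.077 and 0.16). Without mouse a8_11 the difference of PTE+ from PTE- was -0.34, -0.41 and -0.30 for the 3 genes, and without sham mouse a8_16 that of PTE+ from sham was -0.35, -0.53 (p = 0.148) and -0.45. The comparisons share groups, so they are not independent of each other.

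Exact permutation tests of the group labels on log2(CPM + 1) gave, for contralateral PTE+ against PTE-, p = 0.0533 for Mt1, 0.0426 for Mt2 and 0.0866 for Mt3, all 2-sided. Over the 18 such tests of the 3 members within hemispheres, the lowest adjusted p was 0.240. For PTE+ against sham, with 5 mice on each side, the exact p was 0.230 for Mt1, 0.143 for Mt2 and 0.214 for Mt3, where the smallest possible p is 0.00794. Among a9 mice alone, the 3 PTE+ mice had lower contralateral Mt1 than all 6 PTE- mice, by 0.66 on the log2 scale (exact permutation p = 0.0238, the smallest possible, unadjusted). Among a8 mice the difference was -0.33 with 2 PTE+ and 4 PTE- mice (exact p = 0.933). Both are among 36 tests within a8 or a9 mice, with no adjustment over them. How often other genes separate in this way was not examined.

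In the ipsilateral hippocampus, on the injured side, Mt3 had the widest distance between PTE+ and PTE-. Its PTE+ libraries had 130.6, 131.5, 136.0 and 293 CPM, its PTE- libraries 162.3 to 1612 CPM with a median of 289 CPM, and its sham libraries 182.6, 229, 315, 330.1 and 440.0 CPM. Of the 4 PTE+ libraries, 3 lay below every PTE- and every sham library, and the fourth, of mouse a8_10, lay among them. The highest PTE- value again belonged to a8_11, with 368 CPM next to it.

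Ipsilateral Mt1 was 672, 781, 945 and 1352 CPM in PTE+, 723 to 5756 CPM with a median of 1094 CPM in PTE-, and 795, 956, 1381, 1455 and 1858 CPM in sham. The ipsilateral Mt2 values were 120.6, 148.5, 191.3 and 279 CPM in PTE+, 136.0 to 997 CPM with a median of 213 CPM in PTE-, and 163.2, 211, 274, 368 and 375 CPM in sham. For both genes 1 PTE+ library lay below all PTE- libraries and 2 lay below all sham libraries. Apart from a8_11, no ipsilateral PTE- library exceeded 1320.2 CPM of Mt1 or 332 CPM of Mt2.

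Ipsilateral Mt3 differed between PTE+ and PTE- by -1.36 on the log2 scale (SE 0.55, 95% interval -2.51 to -0.21), a fitted ratio of 0.390, with an unadjusted p of 0.0232 in edgeR and no call after adjustment. Without mouse a8_11 the fitted difference of Mt3 was -0.64 (unadjusted p = 0.0621). Mt1 and Mt2 differed by -0.81 each (SE 0.48 and 0.47, p = 0.107 and 0.101), and by -0.14 and -0.27 without a8_11. After adjustment 0 of 3 members passed (background 0% of 14903 genes), and 1 of 3, Mt3, had an unadjusted p under 0.05 (background 1.75%) and met the study's cutoffs as applied to the edgeR p (background 0.503%). DESeq2 gave Mt3 a difference of -0.64 (p = 0.0460) with its replacement of outlier counts and -1.50, with no p, when this replacement was switched off. The exact permutation p for Mt3 was 0.0323, for Mt1 0.271 and for Mt2 0.186.

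Against sham, ipsilateral PTE+ differed by -0.46 for Mt1, -0.59 for Mt2 and -0.79 for Mt3 (p = 0.380, 0.256 and 0.182), with Mt1 at -0.23 without sham mouse a8_16 and 0 of 3 under either threshold (backgrounds 0% and 1.66%). The exact permutation p of Mt3 in this comparison was 0.0476, or 0.240 after adjustment over the 18 tests. PTE- differed from sham by 0.35, 0.22 and 0.57 for Mt1, Mt2 and Mt3 (backgrounds 0% and 1.58%, 0 of 3 under either). These 3 positive values rested on a8_11, since without it they were -0.26, -0.26 and -0.10. The differences of the group medians of log2(CPM + 1), PTE- minus sham, were -0.34, -0.36 and -0.13.

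**Figure D2:**
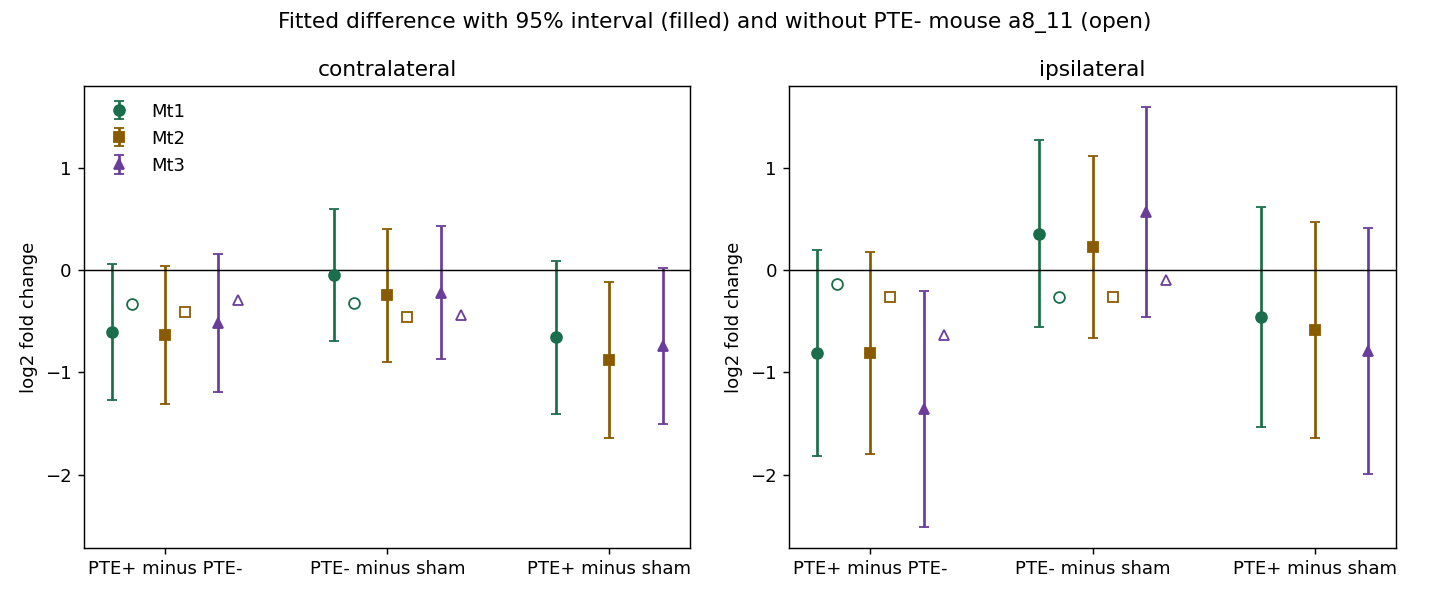
Fitted log2 fold change of Mt1 (circles), Mt2 (squares) and Mt3 (triangles) in the 3 comparisons of each hemisphere. Filled symbols with bars are the estimates with 95% intervals, open symbols the estimates without PTE- mouse a8_11, which moved ipsilateral Mt3 of PTE+ against PTE- from -1.36 to -0.64.

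PTE+ was lower than PTE- and than sham for each member on each side, 12 fitted differences in all, and none of the 258 values recomputed for these under other settings or without 1 library changed sign. These values are not independent: the members move together, both sides come from the same mice, and the 258 are refits of the same libraries. Their number is therefore not a count of separate evidence. None of those 258 had an adjusted p under 0.05, the lowest adjusted p of any member under any setting being 0.684. All 12 differences of PTE+ from PTE- taken within a8 or within a9 mice were also negative, and they use the same mice again. Among a9 mice, ipsilateral Mt3 was lower in the 3 PTE+ than in all 5 PTE- mice, by 0.83 on the log2 scale (exact permutation p = 0.0357, the smallest possible, unadjusted). This too is among the 36 tests within a8 or a9 mice, and how often other genes separate in this way was not examined. A mouse's name went with its level as well: in 18 of 18 combinations of member and group, the mean of the a8 mice was above that of the a9 mice, by 0.30 for Mt2 in contralateral PTE- mice at the least and by 1.31 for Mt3 in ipsilateral PTE- mice at the most.

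Comparing the hemispheres of the same mouse asks whether the injured side differs from the other. In PTE+ mice, Mt3 was lower on the ipsilateral side in 4 of 4, from 324 to 293 CPM in a8_10, from 173 to 131 CPM in a9_17, from 227 to 132 CPM in a9_18 and from 188 to 136 CPM in a9_19. The mean difference was -0.45 ± 0.26 on the log2 scale (SD, n = 4; exact sign permutation p = 0.125, the smallest that 4 mice allow). Mt1 and Mt2 of the same mice were higher on the ipsilateral side in 2 of 4 each, with mean differences of -0.0013 and -0.07.

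In PTE- mice, Mt3 was higher ipsilaterally in 5 of 8, with differences from -0.60 to 1.06 on the log2 scale, the latter in a8_11 (mean 0.05, exact p = 0.789). Mt1 was higher ipsilaterally in 2 of 8 PTE- mice and Mt2 in 3 of 8 (means -0.13 and -0.06, exact p = 0.391 and 0.664). In sham mice, where no side had an impact, Mt3 was lower on the ipsilateral side in all but 1 of 5 (mean -0.31 ± 0.49, exact p = 0.250), and Mt1 and Mt2 were higher there in 2 of 5 each (means -0.19 and -0.28, exact p = 0.438 and 0.375). The side difference of Mt3 in PTE+ mice was 0.50 below that in PTE- mice, a value of -0.50 (exact permutation p = 0.0646, adjusted p = 0.820 over 15 tests of sides).

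The main edgeR fit of the 34 libraries of mice with both sides had no term for the mouse, so it did not pair them. In that fit, no member passed after adjustment for the side in sham, PTE- or PTE+ mice, nor for the difference of the side between PTE- and sham or between PTE+ and PTE- (backgrounds 0%, 0%, 0%, 0% and 0% of 15731 genes). None had an unadjusted p under 0.05 either, against backgrounds of 2.05%, 4.56%, 2.93%, 3.13% and 2.94%. With the mouse as a block, which pairs both libraries of an animal, the fitted Mt3 side difference in PTE+ mice was -0.45 (p = 0.1003) and without the block -0.40 (p = 0.465). Blocking turned Mt1 in PTE- mice from 0.08 to -0.13 and Mt2 from 0.10 to -0.07.

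**Figure D3:**
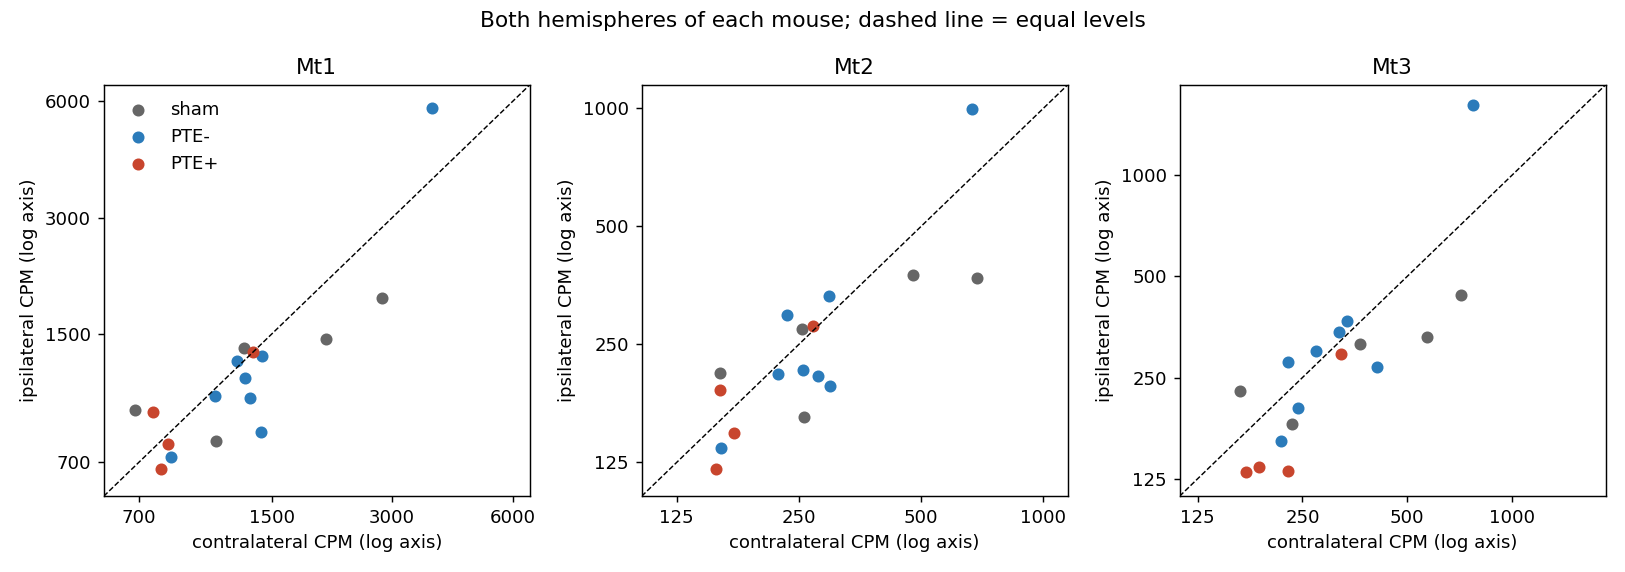
Ipsilateral against contralateral CPM of Mt1, Mt2 and Mt3 in the 17 mice with both libraries, on log axes. Points are mice and the dashed line marks equal levels; the 4 PTE+ mice lie below it for Mt3, and PTE- mouse a8_11 is at the upper right for each gene.

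The members rose and fell together from mouse to mouse. With each library centred on its group mean, Mt1 and Mt2 correlated with r = 0.967 (Spearman's rho 0.833) over 20 contralateral libraries and r = 0.952 (rho 0.880) over 17 ipsilateral ones. Leaving out the 2 mice farthest from the median of Mt1, a8_11 and a8_16, r was 0.940 and 0.887. Mt3 followed Mt1 less closely, with r = 0.884 (rho 0.788) and 0.907 (rho 0.703), and with 0.779 and 0.677 without those 2 mice. Between Mt2 and Mt3, r was 0.804 (rho 0.591) contralaterally and 0.828 (rho 0.598) ipsilaterally, and 0.630 and 0.462 without the 2 farthest mice. In this family of 9 relations the adjusted permutation p of Pearson's r was at most 0.000530 and that of Spearman's rho at most 0.0131.

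The level was also shared by the 2 sides of a mouse. Over the 17 mice with both libraries, centred on their groups, contralateral and ipsilateral levels correlated with r = 0.851 for Mt1 (rho 0.723), 0.809 for Mt2 (rho 0.647) and 0.813 for Mt3 (rho 0.843). Without the 2 farthest mice r was 0.683, 0.681 and 0.819, so that the relation of Mt3 held its size without a8_11.

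The ratio of 2 members within a library does not depend on how libraries are scaled. It was examined after the values above had been seen, as 18 exact tests of 3 ratios in the 6 comparisons. On the ipsilateral side, Mt3 stood at 0.161 to 0.237 of the TPM of Mt1 in the 4 PTE+ libraries (median 0.205), at 0.167 to 0.459 in the 8 PTE- libraries (median 0.293) and at 0.251 to 0.273 in the 5 sham libraries (median 0.256). All 4 PTE+ ratios were below all 5 sham ratios, and the PTE- ratios overlapped with both, with 1 PTE+ ratio below all of the PTE- ratios. Whether ratios of other gene pairs separate as fully in these libraries was not examined.

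The ipsilateral ratio of Mt3 to Mt1 in PTE+ was 0.775 times that in sham (exact permutation p = 0.0159, the smallest possible, and 0.286 after adjustment over the 18 tests). It was 0.704 times that in PTE- (exact p = 0.0646, adjusted 0.286), with a log2 difference of -0.51 that was -0.50 without a8_11, whose own ratio was 0.291. Within a9 mice this difference was -0.48 (exact p = 0.179) and within a8 mice -0.44 with a single PTE+ mouse. Contralaterally no difference was detected, with medians of 0.264 in PTE+, 0.242 in PTE- and 0.266 in sham (exact p = 0.667 for PTE+ against PTE- and 0.659 against sham). The ratio of Mt2 to Mt1 was tighter, with group medians of 0.238 to 0.276, and was lower in contralateral PTE+ than in sham by a factor of 0.884 (exact p = 0.0317, adjusted 0.286).

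**Figure D4:**
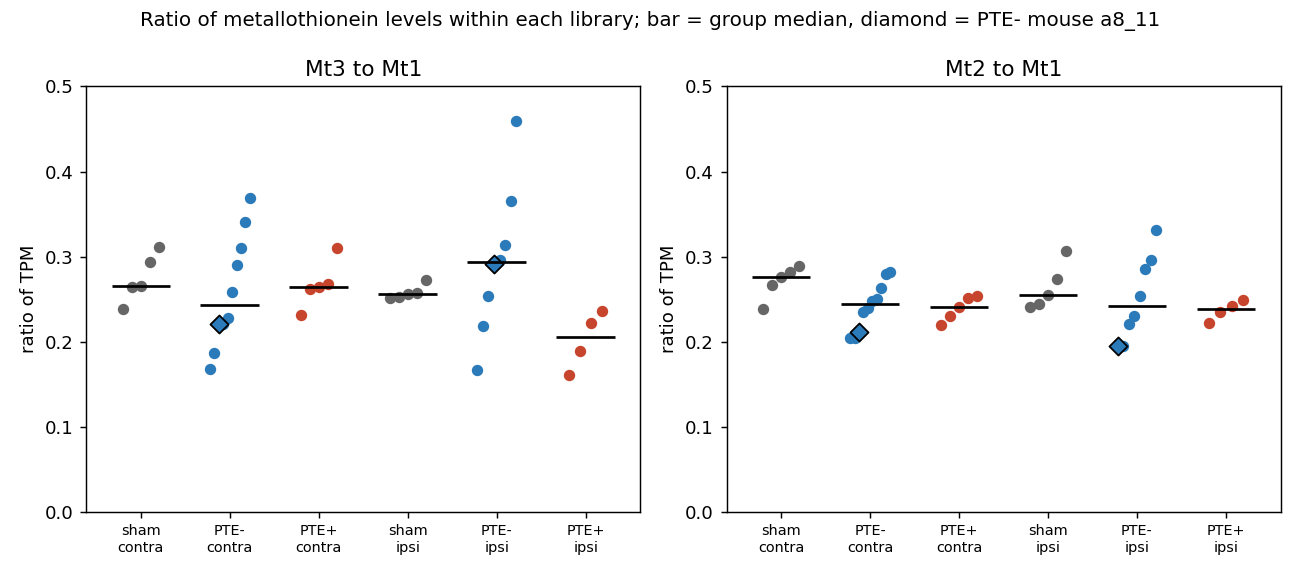
Ratio of the TPM of Mt3 to Mt1 (left) and of Mt2 to Mt1 (right) in each library by group and hemisphere. Points are libraries, bars are group medians and diamonds are PTE- mouse a8_11. Ipsilateral PTE+ ratios of Mt3 to Mt1 lie between 0.161 and 0.237, below all sham ratios. Ratios of other gene pairs were not examined.

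Within groups the members were as variable as other abundant genes. The SD of log2(CPM + 1) around the group means was 0.66 for Mt1, 0.65 for Mt2 and 0.70 for Mt3, and its median over 1783 genes with a median of at least 100 CPM was 0.62. The biological coefficient of variation fitted by edgeR was 0.42 to 0.43 for the members in the contralateral libraries and 0.56 to 0.62 in the ipsilateral ones. At most 13.2% of all tested genes had a lower value.

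The genes whose levels ran most like those of each member, over 37 libraries centred on their groups and among 9586 genes with a median of at least 10 CPM, included other members. For Mt1 these were Mt2 (r = 0.959), Mt3 (0.896), Rpl37a of the large ribosomal subunit (0.879), Gng5, a G protein gamma subunit (0.875), and Atp5g1 of ATP synthase (0.868). Mt2 was followed, after Mt1, by Rpl38 (0.863), Elob of the elongin complex (0.860), Cox5a of cytochrome oxidase (0.857) and Atp5g2 (0.856). Mt3 was followed, after Mt1, by Btf3 (0.881), S100a13 (0.852), Gng5 (0.851) and Rps27 of the small ribosomal subunit (0.834). These values describe libraries that share their amplification and depth, and without the 2 libraries of a8_11 they lay between 0.704 and 0.933. The longest annotated transcripts of the 10 genes other than metallothioneins had a median of 734 bases, against 3440 bases over the 9586 genes compared.

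The share of a library's counts in genes with no annotated transcript of 1000 bases or more (2270 genes, members left out), examined after the values above had been seen, moved with the members. In a8_11 it was 9.66% contralaterally and 8.42% ipsilaterally, the highest of each side. Its group medians were 4.42% in PTE+, 4.44% in PTE- and 4.04% in sham on the contralateral side, and 3.03%, 3.89% and 3.65% on the ipsilateral side. Centred on groups, this share correlated with Mt1 at r = 0.861 (rho 0.740) contralaterally and 0.837 (rho 0.733) ipsilaterally, with Mt2 at 0.789 and 0.744 (rho 0.615 and 0.547), and with Mt3 at 0.799 and 0.847 (rho 0.719 and 0.723). Without the 2 mice farthest in that share, r lay between 0.522 for ipsilateral Mt2 and 0.767 for contralateral Mt3, and over these 6 relations the adjusted permutation p was at most 0.00137 for r and 0.0257 for rho. The part of this share in the group differences was not tested.

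**Figure D5:**
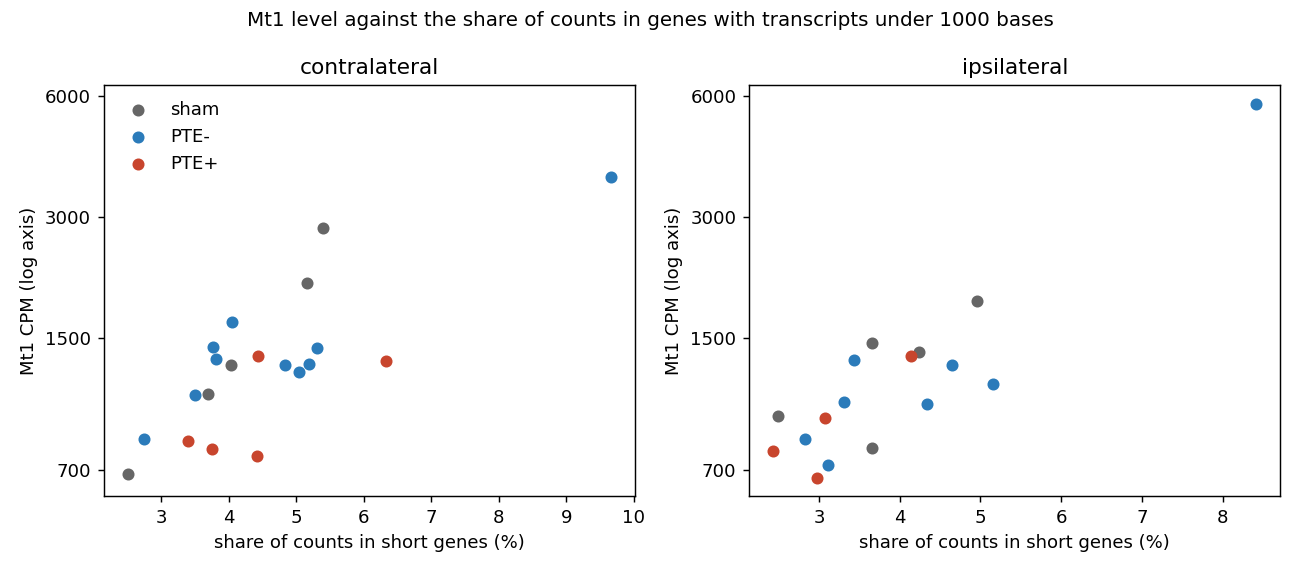
CPM of Mt1 on a log axis against the percentage of counts in genes whose annotated transcripts are all under 1000 bases, by library, for each hemisphere. Points are libraries coloured by group; Mt1 is higher where the share is higher, and PTE- mouse a8_11 stands alone at 9.66% and 8.42%.

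Genes of zinc, copper and iron handling, Mtf1 and genes of the glucocorticoid response were described from lists of 60 genes, all of them in the tables, of which 57 were tested. None passed after adjustment in any of the 6 comparisons within a hemisphere. At an unadjusted p under 0.05 there were none in the 3 contralateral comparisons or in ipsilateral PTE+ against PTE-, and 2 of 57, or 3.51%, in each ipsilateral comparison with sham, against the backgrounds of 1.58% and 1.66% given above. Both of these were in the glucocorticoid list in each comparison, and the zinc, Mtf1, copper and iron lists held 0.

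Slc39a12, a zinc importer of astrocytes, was the most abundant of the 14 importers, with a median of 324 TPM (7.72 to 532 TPM), followed by Slc39a7 of the secretory pathway with 222 TPM, which is named after its level was seen. Slc30a1, the exporter of the plasma membrane and itself a known target of MTF1, had a median of 19.6 TPM, and Mtf1 of 7.57 TPM with at most 3 counts in 5 of 37 libraries. For contralateral PTE+ against PTE-, Slc39a12 differed by -0.22 (SE 0.24), Slc30a1 by -0.17 (SE 0.68) and Mtf1 by -0.45 (SE 1.12) on the log2 scale. Ipsilaterally the same comparison gave -0.13 (SE 0.53), 0.86 (SE 0.89) and 0.57 (SE 1.47). With these errors, differences of the members' size were not detectable for Slc30a1 and Mtf1.

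The median log2 difference of PTE+ from PTE- was, contralaterally, -0.14 over 8 zinc exporters, -0.22 over 13 importers, -0.62 over 12 genes of copper handling and -0.27 over 11 of iron handling, against -0.05 over all genes. On the ipsilateral side the medians were 0.27, -0.06, -0.05 and -0.10 against -0.01 over all genes. The ferritin genes Fth1 and Ftl1, which store iron and are named after their levels were seen, had medians of 3969 and 2720.4 TPM, in the range of the metallothioneins. Between sides, the copper transporters Atp7a and Atp7b had an unadjusted p under 0.05 in PTE+ mice, in the edgeR fit without a mouse term. They were ipsilaterally higher (p = 0.0376 and 0.0191 in edgeR, from median levels of at most 6.82 TPM). These were 2 of 57 list genes tested, or 3.51%, near the 2.93% of all genes. Atp7b was also under 0.05 for the difference of sides between PTE+ and PTE-, 1 of 57 or 1.75%, against 2.94% of all genes. Neither gene passed after adjustment. Atp7a and Atp7b had at most 3 counts in 9 and 17 of 37 libraries.

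Nr3c1, the glucocorticoid receptor, had a median of 67.5 TPM and differed between PTE+ and PTE- by -0.58 contralaterally (SE 0.34, p = 0.101) and by 0.27 ipsilaterally (SE 0.65). Of the 12 genes of the glucocorticoid response, Tsc22d3, also known as GILZ, and Dusp1, a MAP kinase phosphatase that is also an immediate early gene, had an unadjusted p under 0.05 in the ipsilateral comparisons with sham. Tsc22d3 differed by -1.16 in PTE+ (SE 0.33, p = 0.00225) and by -0.79 in PTE- (SE 0.27, p = 0.00775), and Dusp1 by -1.73 (SE 0.60, p = 0.00981) and -1.10 (SE 0.48, p = 0.0330), and none of the 4 passed after adjustment in edgeR. Ipsilateral medians of Tsc22d3 were 158 TPM in PTE+, 196 TPM in PTE- and 315 TPM in sham. The summed immediate early genes Fos, Jun, Junb, Egr1 and Fosb had ipsilateral medians of 777 CPM in PTE+, 747 CPM in PTE- and 2646 CPM in sham, and contralateral ones of 528 CPM, 859 CPM and 1541 CPM. Per gene, PTE+ was below PTE- for 5 of 5 of them contralaterally (median log2 difference -2.23) and for 4 of 5 ipsilaterally (median -1.01). Contralaterally 1 of the 5 had an unadjusted p under 0.05 (background 2.21%) and none passed after adjustment in edgeR. The highest PTE- sum on each side was that of mouse a8_14, with 4742 CPM contralaterally and 4430 CPM ipsilaterally. The highest PTE+ sums were 1467 and 913 CPM. Fits of these genes without a8_14 are not given here. Against sham, PTE+ was lower for 5 of 5 on each side (medians -2.38 and -1.49). Their part in the values of Dusp1, Tsc22d3 and the members was not tested. The median over the 12 genes was -0.49 in both ipsilateral comparisons with sham, against 0.00 and 0.02 over all genes.

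Markers of the isolated and of other cell types are given by their summed level. Ipsilateral microglial markers summed to medians of 275 CPM in PTE+, 357 CPM in PTE- and 423 CPM in sham, and oligodendrocyte markers to 698, 773 and 1445 CPM. Contralateral endothelial markers summed to 923 CPM in PTE+, 492.97 CPM in PTE- and 373 CPM in sham. Contralateral neuronal markers summed to medians of 256 CPM in PTE+, 194 CPM in PTE- and 306 CPM in sham. Their PTE+ sums ran from 149 CPM to 1386 CPM, the highest in mouse a9_19. Per gene, the 7 neuronal markers were all higher in contralateral PTE+ than in PTE- (median log2 difference 1.25, 1 with an unadjusted p under 0.05 in edgeR, background 2.21%). So were the 5 endothelial ones (0.92), whose highest PTE+ sum was 2201 CPM in a8_10. Ipsilaterally 6 of 7 neuronal (0.42) and 4 of 5 endothelial markers (0.27) were higher. The 6 ependymal and choroid plexus markers were lower in PTE+ than in PTE- for 4 of 6 contralaterally (-1.62, 1 with an unadjusted p under 0.05, background 2.21%). Ipsilaterally they were lower for 6 of 6 (-1.38), where the PTE- libraries include a8_11. Red blood cell markers were lower for 5 of 5 on each side (-0.26 and -0.31). No marker passed after adjustment in these 2 comparisons. The astrocyte markers had contralateral medians of 23036 CPM in PTE+, 26780 CPM in PTE- and 24984 CPM in sham, and ipsilateral ones of 21151, 21094 and 34551 CPM. Per gene, 9 of 10 astrocyte markers were lower in PTE+ than in PTE- contralaterally (median log2 difference -0.15) and 5 of 10 ipsilaterally (-0.02). Against contralateral sham, 7 of 10 were lower in PTE+ (-0.21) and 4 of 10 in PTE- (0.07). Against ipsilateral sham, 9 of 10 were lower in PTE+ (-0.31) and 7 of 10 in PTE- (-0.30). In both ipsilateral comparisons 2 of 10 had an unadjusted p under 0.05 (backgrounds 1.66% and 1.58%), and none passed after adjustment in edgeR. Atp1b2, the target of the isolation, was present in all 37 libraries (99.5 to 653 TPM). The part of these levels in the values of the members was not tested.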

How the data were processed

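Astrocyte RNA of 37 hippocampi was sequenced after SMART-Seq V4 amplification. Per the labels and the methods, the authors trimmed reads with Trim Galore 0.6.4 and deposited expected counts per gene, without normalization and as whole numbers, and TPM, both from RSEM 1.2.28 with Bowtie2 2.4.1 on mm10. The annotation release is not given in the sources used here. Symbols came from GENCODE M21 (21856 of 21975 identifiers matched), promoter windows from RefSeq.

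Counts were tested in R 4.3.3 with edgeR 4.0.16: filterByExpr, TMM scaling and the quasi-likelihood F test on all 3 groups of a hemisphere, with Benjamini-Hochberg adjustment over all genes. The script was tested on simulated data. CPM in the text are TMM-scaled over all 37 libraries. Side comparisons used the 17 mice with both libraries. Their main edgeR fit had no term for the mouse, and the fit with the mouse as a block was an alternative. The mouse pairs its libraries, being 1 animal, and 7 of 17 pairs had a correlation of deviations over 0.1 (median 0.071). Among opposite sides of different mice of a group, 9 of 88 pairs did (median -0.019). Alternatives were DESeq2 1.42.0, limma 3.58.1 on log2(TPM + 1) and on log2(TPM + 0.1), voom with quality weights, RLE scaling, no filter, 2 groups alone, covariates and leaving out each library. Exact tests used log2(CPM + 1), and log2 TPM for the ratios. They were enumerated with numpy 2.4.6, and the group test was checked against that of scipy 1.17.1. No 2 libraries held identical values. The lists and tests were chosen with earlier results of these data known. Always named were the 3 members, Mtf1, Slc30a1, Slc39a12 and Nr3c1, with up to 2 list genes a comparison of the smallest unadjusted p under 0.05, and the 5 genes most like each member.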

Additional observations from a re-analysis of the deposited data

Results flagged for a closer look

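Libraries were compared with the others of their group by the gap of the highest or lowest value to its neighbour, relative to the range of log2(CPM + 1). Of the 18 combinations of member and group, 6 had a library apart by this measure, while chance gives about 1 in 20, and 5 of the 6 were the libraries of PTE- mouse a8_11. Its contralateral library held 3776 CPM of Mt1 (the next PTE- library held 1642) and 772 CPM of Mt3 (next 408). Its ipsilateral library held 5756 CPM of Mt1 (next 1320.2), 997 CPM of Mt2 (next 332) and 1612 CPM of Mt3 (next 368). The sixth was the ipsilateral library of PTE+ mouse a8_10, with 293 CPM of Mt3 where the other 3 PTE+ libraries held at most 136.0 CPM. No cause was tested for either mouse. No test of a difference between sides or groups of sides passed the threshold of 0.05.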

How the results depend on the processing

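Across 603 recomputed values of 33 results, 567 kept their direction and their side of the threshold, 36 changed sign, and none had an adjusted p under 0.05. The cause of these changes was not tested, except where leaving out a8_11 alone made them. Contralateral PTE- against sham turned positive under voom with quality weights, at 0.26 for Mt1, 0.077 for Mt2 and 0.16 for Mt3, and ranged over leave-one-out fits from -0.32 to 0.26, from -0.46 to 0.10 and from -0.44 to 0.073, the upper ends being those without sham mouse a8_16 and the lower ends those without a8_11; Mt1 was also positive without a9_16 or a9_9. Ipsilateral PTE- against sham turned negative for Mt1 on log2(TPM + 1) (-0.0080), on log2(TPM + 0.1) (-0.0080), under voom (-0.078) and with detected genes as a covariate (-0.049), for Mt2 under the same settings (-0.099, -0.099, -0.12 and -0.091), and for Mt3 under DESeq2 (-0.088) and voom (-0.027). Its leave-one-out ranges were -0.26 to 0.48, -0.26 to 0.36 and -0.096 to 0.70, with the lower ends without a8_11. With the mouse as a replicate block, the side difference was -0.13 for Mt1 and -0.066 for Mt2 in PTE- mice and -0.0011 for Mt1 in PTE+ mice, and the difference of sides between PTE+ and PTE- was 0.13 for Mt1; the block changed no call. On log2(TPM + 1), the side difference of Mt2 in PTE+ mice was 0.086 and the difference of sides of Mt1 between PTE+ and PTE- was 0.093. Leaving out each mouse, the side difference in PTE- mice ranged from -0.21 to 0.17 for Mt1, from -0.12 to 0.18 for Mt2 and from -0.062 to 0.45 for Mt3, that in PTE+ mice from -0.083 to 0.081 for Mt1 and from -0.13 to 0.047 for Mt2, and the difference between PTE+ and PTE- from -0.17 to 0.24 for Mt1 and from -0.23 to 0.10 for Mt2. Ipsilateral PTE+ against PTE- ranged from -1.04 to -0.14 for Mt1, from -1.08 to -0.27 for Mt2 and from -1.74 to -0.64 for Mt3, the last of each being without a8_11, and contralateral PTE+ against sham from -0.85 to -0.35, from -1.07 to -0.53 and from -0.94 to -0.45, the last without a8_16. On log2(TPM + 1) the contralateral differences of PTE+ from PTE- were -0.30, -0.31 and -0.22. What limited the number of calls was not tested. DESeq2 without replacement of outlier counts and the ratios without a8_11 were chosen after seeing the data.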
